A study of Drosophila melanogaster with 2 samples.

Results

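A group of 10 Drosophila melanogaster genes of the ZAD zinc finger family were described at the sites bound by one family member, the tagged protein ranshi. The 10 members, ranshi, ouib, nom, CG8159, M1BP, trem, Sry-delta, prg, pita and ZIPIC, were taken by symbol from the 13968 protein-coding genes of the dm6 annotation. The data were chromatin immunoprecipitation sequencing (ChIP-seq) peak lists from 2 biological replicates of 1 group. Each replicate was of whole embryos, aged 0 to 24 h, of the fly strain ranshi-GFP, which carries a transgene for ranshi fused to eGFP, and the immunoprecipitation used an antibody against GFP. No group without the transgene was analysed here, and the peak lists give no read depth, so the depth behind each peak is unknown. Whole embryos mix all cell types, so a peak does not say in which cells the protein was bound.

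ZAD proteins carry a zinc-finger-associated domain near the N terminus, which pairs one protein with another, and an array of C2H2 zinc fingers, which reads DNA. The family expanded greatly in insects, and many of its genes lie in tandem groups left by gene duplication. Studied members include regulators of single target genes as well as proteins that bind many promoters and chromatin boundaries.

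The members encode proteins of 312 (ouib) to 683 residues (pita) with 5 to 10 C2H2 fingers. Over aligned residues, the ranshi protein was 45.3% identical to M1BP, 41.7% to CG8159, 40.3% to ouib and 36.4% to nom, the 4 members beside it, and 34.1% to trem. Identity to the other members was lower, at 31.2% for ZIPIC, 30.7% for prg, 28.9% for pita and 28.1% for Sry-delta. Of the members, 8 lie on chromosome arm 3R. The genes nom, ouib, CG8159, ranshi and M1BP adjoin each other, and ZIPIC and Sry-delta lie in another neighbourhood of the arm.

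Each replicate has a long list of candidates in ranked order, and a thresholded set drawn from that list. The series as a whole has a conservative set of 2984 peaks and a larger set of 5373, each with its own ranked list.

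Of the 10 members, 5 had a peak of the conservative series set with its summit within 500 bp of a transcript start: M1BP, trem, Sry-delta, prg and pita. The same 500 bp rule was met by 12.7% of all protein-coding genes. The 5 members made up 6 promoter peaks, since trem had a pair of them. Sequence around 5 of these 6 summits is shown because these are the promoter sites described next; the site at pita is given by position only. Each stretch is from the RefSeq assembly of dm6, plus strand, 5′ to 3′, and the capitals mark the 11 bases centred on the summit. The first 4 reach 50 bases to each side of the summit and lie at chr3R:8731951-8732051, chr3R:20031323-20031423, chr3R:20031568-20031668 and chr2L:8464331-8464431. The stretch at Sry-delta, chr3R:30043297-30043370, stops 30 bases into the 5′ UTR.
M1BP, summit 303 bp upstream of the start: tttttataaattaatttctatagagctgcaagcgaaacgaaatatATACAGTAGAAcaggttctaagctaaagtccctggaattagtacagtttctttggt
trem, summit 64 bp upstream: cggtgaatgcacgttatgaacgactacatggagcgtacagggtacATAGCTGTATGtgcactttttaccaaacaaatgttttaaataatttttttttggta
trem, summit 309 bp upstream: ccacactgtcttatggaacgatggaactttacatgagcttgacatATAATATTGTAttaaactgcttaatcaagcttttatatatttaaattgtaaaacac
prg, summit 107 bp upstream: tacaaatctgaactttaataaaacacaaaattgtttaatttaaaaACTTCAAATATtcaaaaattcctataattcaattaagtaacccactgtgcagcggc
Sry-delta, summit 6 bp downstream of the start: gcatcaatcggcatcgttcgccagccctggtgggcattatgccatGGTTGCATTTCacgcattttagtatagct

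In the summit base and 50 bases to each side, the G+C content of the 6 promoter sites was 25.7% at prg, 28.7% at the farther trem peak, 30.7% at pita, 31.7% at M1BP, 35.6% at the nearer trem peak and 46.5% at Sry-delta. Over all 2984 conservative peaks it was 33.3% ± 9.73 (SD over peaks), and over 83734 ranked candidates in neither series set 47.7% ± 9.54. At 5 of the 6 sites the content therefore lay within 1 SD of the mean of the conservative peaks, and at Sry-delta it lay above, close to the mean of the candidates.

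The letters CACTG, on either strand, were present in the windows of prg and of the farther trem peak, 37 bases to the right and 47 to the left of the summit. They were absent from the other 4 windows. CACTG occurred in 20.2% of conservative windows and 20.6% of candidate windows of the same length, so its presence sets neither site apart. The letters CGATA were present at Sry-delta, 26 bases right of the summit and outside the stretch shown, and at pita, against 14.2% of conservative and 10.2% of candidate windows. The DNA replication-related element core (TATCGATA, which contains CGATA) and Motif 1, the core promoter element bound by the M1BP protein, were in none of the 6 windows. They were in 1.74% and 0.335% of all conservative windows, and in 0.198% and 0.0705% of candidate windows.

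The adjoining genes nom, ouib, CG8159, ranshi and M1BP held 1 conservative peak between them. The labels do not say how much sequence around ranshi the transgene carries, and the part of a second copy in the signals and candidate counts at this locus was not tested. M1BP, which encodes the protein that binds Motif 1 promoters, lies on the minus strand at 8729790 to 8731698 of 3R and starts 393 bp from CG8202 on the plus strand. The peak, chr3R:8731939-8732106, sat in the intergenic stretch between these divergent starts, with its summit 303 bp from M1BP and 90 bp from CG8202. It was therefore nearer to the CG8202 start than to the M1BP start.

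Peak signal, as the peak caller gave it, has no common scale between lists, so ranks within a list (1 is the highest signal) are given beside it. The M1BP and CG8202 peak had a signal of 311 in both series sets, where it ranked 433 of 2984 in the conservative and 440 of 5373 in the larger set. In replicate 1 its signal was 237 and its rank 346 of 3636. In replicate 2 its signal was 46.0 and its rank 2102 of 3149, with the summit 7 bp away. The peak thus stood in the top 9.52% of one replicate and only in the top 66.8% of the other. Over the 1774 conservative peaks present in the sets of both replicates, this rank percentage differed between replicates by a median of 10.9 points, with quartiles of 3.75 and 24.5. The difference at M1BP was 57.2 points, and 2.76% of those peaks differed by as much.

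**Figure D1:**
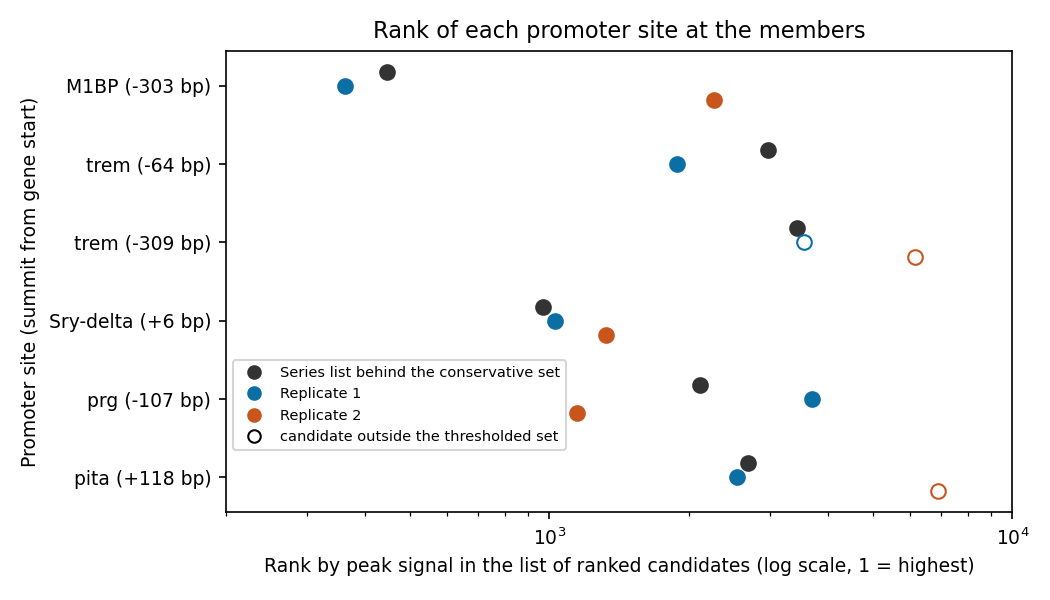
Rank by peak signal, on a log axis, of the 6 promoter sites at 5 members in the series list behind the conservative set and in each replicate's list; each point is 1 site in 1 list and open points are candidates outside the thresholded set. M1BP ranks higher in replicate 1 than in replicate 2 and prg the other way round, while the 3 points of Sry-delta lie close together.

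ranshi, the tagged gene itself, lies on the minus strand at 8728367 to 8729693 and had no thresholded peak within 500 bp of its start or inside the gene in any of the 4 sets. Its start is 97 bp from the end of M1BP, which is on the same strand. Besides the M1BP and CG8202 peak, 2308 bp upstream of ranshi, the only thresholded site within 5 kb was one in an M1BP intron, 920 bp upstream of ranshi, at chr3R:8730455-8730770. This intronic site was in the larger set alone, with a signal of 62.6 and rank 4386 of 5373. It was a candidate in every ranked list, with signals of 62.6 in both series lists, 32.7 in replicate 1 and 26.5 in replicate 2, and its scores were 707 in the list behind the conservative set, 983 in that behind the larger set, 290 in replicate 1 and 575 in replicate 2. The score is a whole number up to 1000 made from the irreproducible discovery rate, an estimate of how often peaks of that rank would fail to recur. Every set has a lowest score of 830, so the site passed that limit in 1 of 4 lists.

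Within ranshi itself the ranked lists held few candidates. Replicate 1 and the series list behind the conservative set had none. The series list behind the larger set had 1, with a signal of 49.0 and rank 7325 of 132943. Replicate 2 had 2, with signals of 23.4 and 5.36, which ranked 9328 and 71639 of 83284. None reached the score limit, the highest score among them being 463.

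ouib encodes an activator of an ecdysone biosynthesis gene in the larval prothoracic gland. It lies at 8725479 to 8726730 on the plus strand, and had no thresholded promoter peak in any set. Its only thresholded peak within 5 kb was the intronic M1BP site of the larger set, 3883 bp beyond the gene. Candidates within ouib numbered 0 in replicate 1 and in both series lists, and 1 in replicate 2, with a signal of 12.6 and rank 35052. nom, at 8723174 to 8725357, had no thresholded peak within 5 kb in any set, and a single promoter candidate, in replicate 2, with a signal of 18.3 and rank 16849. CG8159, at 8726854 to 8728370, had no promoter peak, and its 1 promoter candidate was the one inside ouib. Its 2 candidates within the gene, both in replicate 2, had signals of 17.7 and 16.7. The M1BP and CG8202 peak, 3631 bp beyond the end of CG8159, is the one conservative peak within 5 kb of that gene. The larger set also had the intronic M1BP site, 2243 bp beyond the same end.

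In some lists these genes lay in long stretches that held no candidate at all. Each set is drawn from its ranked list, so such a stretch cannot hold a peak of the set. In the ranked series list behind the conservative set, no candidate summit lay between 8694309 and 8730613 of 3R, a stretch of 36304 bp that holds nom, ouib, CG8159 and ranshi whole. In replicate 1 the corresponding stretch was 20652 bp, from 8709949 to 8730601, and held the same 4 genes. In replicate 2 a candidate-free stretch of 16143 bp, from 8694323 to 8710466, lay beside it and held no member. The stretch was 14322 bp in the series list behind the larger set, where it held nom, ouib and CG8159. The 2 replicates thus differed over these genes, with candidates in replicate 2 and none in replicate 1. Neither replicate's set had a promoter peak at any of the 4 genes.

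Such stretches were common. Those of 10 kb or more between neighbouring candidates covered 44.8% of the 5 major arms in the list behind the conservative set, 18.9% in the list behind the larger set, 22.1% in replicate 1 and 32.1% in replicate 2. They held, whole, 29.0%, 8.76%, 20.2% and 15.4% of all protein-coding genes in the same order. Of the members they held 4, 3, 4 and 0. The count of candidates within 20 kb of the gene centre gave the same contrast: for ranshi it was 19 in replicate 1, against a median of 35.0 over all genes, and 44 in replicate 2, against 36.0. What sets where candidates are missing was not tested.

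**Figure D2:**
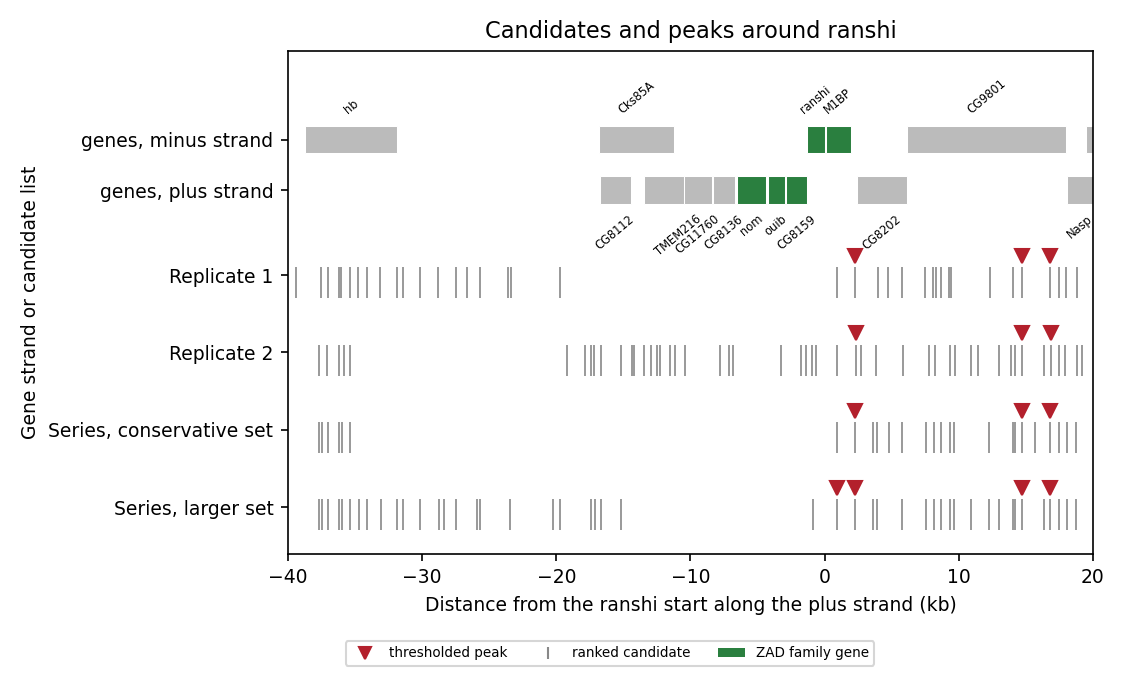
Genes (bars, by strand, ZAD family genes in green), ranked candidates (grey ticks) and thresholded peaks (red triangles) from 40 kb before to 20 kb after the ranshi start in the 2 replicates and 2 pairs of series lists; the x axis is distance in kb. Replicate 1 and the conservative series list are empty over nom, ouib, CG8159 and ranshi, replicate 2 holds candidates there, and the peak between M1BP and CG8202 is present in all 4.

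trem, which acts in forming the DNA breaks of meiotic recombination in females, is the member outside that group whose protein was most like ranshi. It lies on the minus strand at 20029560 to 20031309 of 3R, and its start is 514 bp from the start of idc, another gene whose protein matched the ZAD profile. The family genes CG4424 and CG4854 lie on the other side of trem. The conservative set had a pair of peaks between trem and idc, with summits 245 bp apart and intervals that overlap by 71 bp.

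The peak nearer to trem, chr3R:20031215-20031530, had its summit 64 bp from trem and 450 bp from idc. Its signal was 82.6 in both series sets, where it ranked 2525 of 2984 and 3158 of 5373. In replicate 1 its summit was at the same base, in a narrow peak of 75 bp, with a signal of 79.5 and rank 1817 of 3636. The replicate 2 list had no candidate at this summit. The peak farther from trem, chr3R:20031460-20031775, had its summit 309 bp from trem and 205 bp from idc. Its signal was 73.7, and it ranked 2735 in the conservative set and 3645 in the larger.

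Neither replicate alone had the farther peak in its thresholded set. The replicate 2 candidate, 7 bp from the series summit, had a signal of 27.9, a rank of 6160 of 83284 and a score of 168. The replicate 1 candidate, 38 bp from it, had a signal of 46.6, a rank of 3543 of 112688 and a score of 58. The 2 replicates therefore placed their highest signal between trem and idc at different positions, replicate 1 beside trem and replicate 2 nearer idc. trem passed the 500 bp rule in replicate 1 and not in replicate 2.

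A different peak, 4845 bp upstream of trem and 98 bp from the start of Regnase-1, which encodes an RNA-degrading enzyme, had the opposite pattern. Its conservative signal was 159, at rank 1240. In replicate 2 the signal was 132 and the rank 289 of 3149. In replicate 1 it was a candidate below the limit, with a signal of 33.1, a rank of 5771 and a score of 706.

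**Figure D3:**
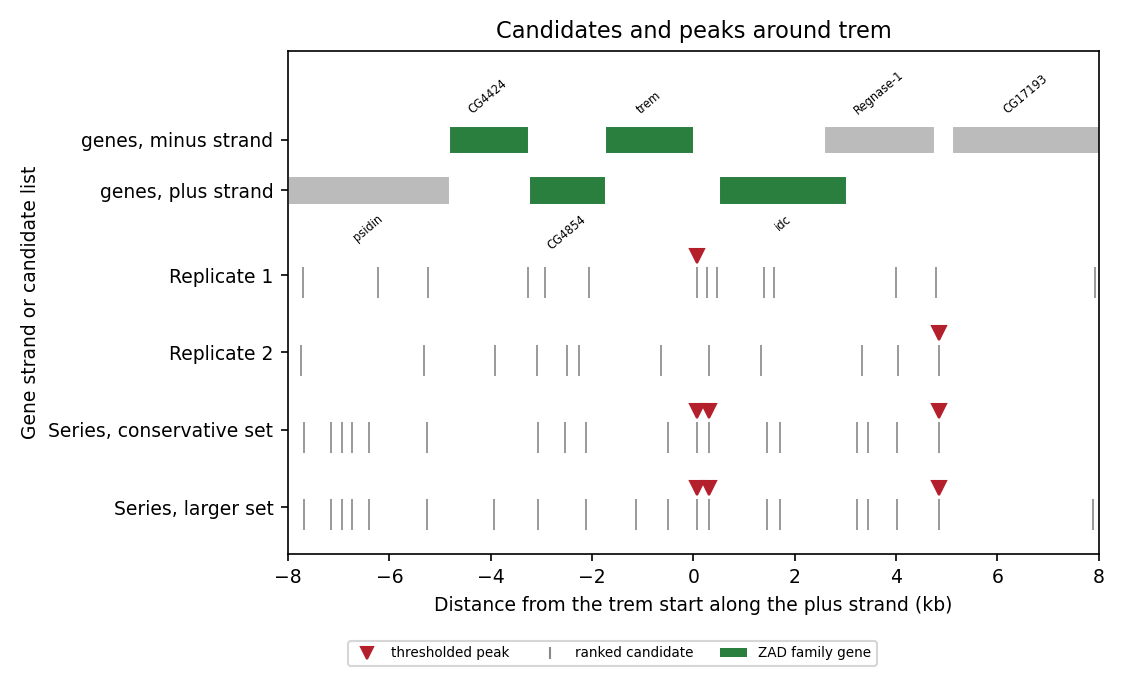
Genes, ranked candidates and thresholded peaks within 8 kb of the trem start, drawn as for ranshi, with distance in kb on the x axis. The pair of peaks between trem and idc is thresholded in both series sets, the nearer one also in replicate 1, and the Regnase-1 peak in replicate 2 and both series sets.

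Sry-delta, an activator of bicoid in the female germ line, had the member peak that changed least between lists. The gene lies on the plus strand at 30043341 to 30044886 of 3R, with Sry-beta 270 bp upstream on the same strand. The peak, chr3R:30043189-30043504, had its summit 6 bp downstream of the start, in the 5′ UTR. Its signal was 193 in the series sets, with ranks of 938 of 2984 and 972 of 5373. It was 126 in replicate 1, at rank 989 of 3636, and 60.2 in replicate 2, at rank 1267 of 3149. The summits of the 2 replicates were 5 bp apart, and the rank percentage differed by 13.0 points, which 44.7% of the shared peaks equalled or exceeded. The other peak within 5 kb, between the divergent starts of the ribosomal protein gene RpL32 and CG7943, was higher in every list, with a signal of 534 and rank 142 in the conservative set, 356 and rank 153 in replicate 1, and 189 and rank 132 in replicate 2.

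ZIPIC, which encodes a chromatin architectural protein that recruits CP190, lies on the minus strand at 30035240 to 30036870 of the same neighbourhood. It had no thresholded peak within 5 kb in any set. In the gene or within 5 kb it had 17 candidates in the list behind the conservative set, with signals of 4.78 to 41.2, and 16 in the list behind the larger set. It had 11 in replicate 1 and 10 in replicate 2. The genes nom, ouib, CG8159 and ranshi had 0 to 5 candidates by the same rule in the first 3 of these lists, but 9 to 11 in replicate 2, where ZIPIC did not stand apart from them. The candidates nearest its start had a signal of 8.25, 75 bp downstream, in the list behind the larger set, and 16.8, 97 bp downstream, in replicate 2, where the rank was 20256.

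prg lies on the plus strand at 8464488 to 8466694 of chromosome arm 2L and shares a divergent promoter of 494 bp with Agpat2, which encodes an acyltransferase of phospholipid synthesis. The peak, chr2L:8464223-8464538, had its summit 107 bp upstream of prg and 387 bp from Agpat2. Its signal was 109 in the series sets, with ranks of 1975 and 2211. Replicate 1 gave 45.1 and rank 3275 of 3636, and replicate 2 gave 65.4 and rank 1102 of 3149, with summits 64 bp apart. This was the reverse of M1BP: the site was near the bottom of the replicate 1 set and in the upper part of the replicate 2 set. The rank percentage differed by 55.1 points, as much as in 3.33% of shared peaks. A peak in an Agpat2 intron, 1152 bp from prg, was higher in the conservative set, at 161 and rank 1223, and in replicate 1, at 110 and rank 1203, and lower in replicate 2, at 54.3 and rank 1531.

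pita, which encodes another architectural protein that recruits CP190, lies on the minus strand at 23548967 to 23554712 of chromosome arm 2R, 306 bp from Rrp4 on the same strand. Its promoter peak, chr2R:23554436-23554751, had its summit in the 5′ UTR, 118 bp downstream of the outermost of its 2 annotated starts. The signal was 88.8 in the series sets, with ranks of 2390 and 2853. In replicate 1 it was 62.4 at rank 2415. In replicate 2 the site was a candidate only, with the summit 7 bp away, a signal of 26.6, a rank of 6888 and a score of 65. The site was thus in both series sets and the replicate 1 set, and not in the replicate 2 set, as was the nearer trem peak. A higher peak beyond the 3′ end of pita, in the 5′ UTR of wmd and 135 bp from the start of levy, a gene for a cytochrome c oxidase subunit, was in all 4 sets, with conservative signal 274 at rank 517. The other annotated start of pita, inside the gene, had candidates within 500 bp but no thresholded peak. The highest had a signal of 33.0 at rank 15970 in the list behind the conservative set, and 24.5 at rank 8340 in replicate 2.

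Across the sets, the 5 members with a conservative promoter peak also had one in the larger set and in the replicate 1 set, where 20.5% and 14.5% of all genes did. In the replicate 2 set the count fell to 3 (M1BP, Sry-delta and prg), against 13.9% of all genes. The same 3 were in the sets of both replicates, against 8.77%. With the window widened to the gene and 5 kb around it, 7 members had a conservative peak, against 36.3% of all genes. The genes ranshi, CG8159 and M1BP met this rule by the same peak, that between M1BP and CG8202. The members ouib, nom and ZIPIC had none. Members and family had been picked with earlier results of these data known, so these counts describe the 10 genes and are no test of the family. Among genes with a candidate within 500 bp in the list behind the conservative set, 5 of 5 members had the conservative peak, against 21.6% of all such genes. The conservative set is drawn from that list, and the other 5 members had no such candidate in it. The outcome depends on the list: in replicate 2, nom, CG8159, ZIPIC, trem and pita had a candidate within 500 bp and no peak of its set there.

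Most member promoter peaks were low in the conservative set: those of prg, pita and trem lay below its median signal. The highest promoter signal had a median of 109 over the 5 members, with a range of 82.6 to 311, against a median of 172 over the 1778 genes with a conservative promoter peak. Of the members, M1BP and Sry-delta had a promoter peak above the median signal of the conservative set, 137.

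The 3 members with a start on the other strand within 1000 bp upstream, M1BP, trem and prg, all had a conservative promoter peak. This was so for 22.3% of all genes with such a divergent start. Of the 7 members without one, 2 had a peak (Sry-delta and pita), against 6.52% of all genes without one. The 5 members lacking a promoter peak, ranshi, ouib, nom, CG8159 and ZIPIC, all had a protein-coding gene on the same strand ending 97 to 133 bp before their start. The 5 with a peak had their upstream neighbour at 270 to 514 bp. A limit of 200 bp, chosen after these distances were seen, was then applied to every gene. Of the genes with a same-strand gene that close, 5.85% had a conservative promoter peak, and of the rest 13.4%. The split by upstream distance is not separate from that by divergent starts: the 5.85% lies close to the 6.52% of all genes without a divergent start. The 4 genes beside each other near ranshi share their surroundings.

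**Figure D4:**
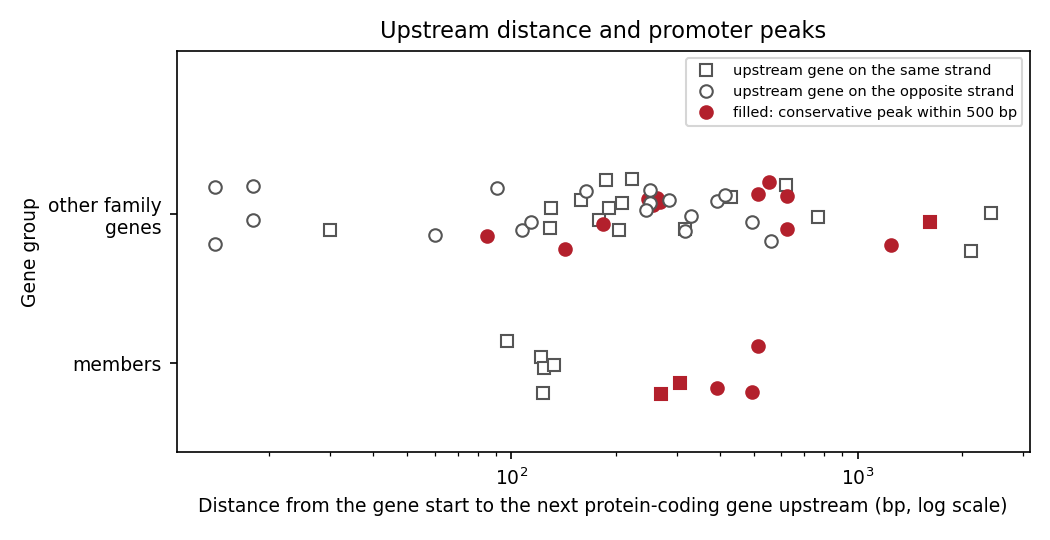
Distance from the gene start to the next protein-coding gene upstream (bp, log axis) for the 10 members and the other family genes that have a measured upstream neighbour; squares mark a neighbour on the same strand, circles one on the opposite strand, and filled points a conservative promoter peak, with points spread vertically for visibility. The 5 open squares of the members lie at 97 to 133 bp, and the 5 filled points at 270 to 514 bp. The other family genes show no such split by distance. Among them CG17328 at 85 bp and CG1792 at 143 bp are filled, and points at 2113 and 2419 bp are open.

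A profile of the ZAD region, built from the members, matched the protein products of 48 other genes. Of these, 13 had a conservative promoter peak, 15 a peak in the larger set, 12 in replicate 1 and 8 in replicate 2, and 7 had one in both replicates. The shares of all genes were 12.7%, 20.5%, 14.5%, 13.9% and 8.77% in the same order. Taking replicate 2 alone thus lowered the count from 13 to 8. The 13 were 27.1% of the 48 genes, and the 8 were 16.7%, close to the share of all genes in replicate 2. All 13 were among the 33 genes with a divergent start, where the share over all genes was 22.3%. None were among the 15 without one or the 7 with a same-strand gene within 200 bp upstream; with shares of 6.52% and 5.85% over all such genes, counts of 0 in groups this small are near the background. The profile does not find the whole family: of 15 other family genes listed by name, it matched 8 and missed 7, Phs and Sry-beta among them. This named list, which overlaps the profile list, gave 3 in the conservative set (Phs, and D19A and D19B, which are also among the 13), 5 in the larger set, 4 in replicate 1 and 5 in replicate 2. The shares of all genes above apply to these counts too, and with 15 genes a difference from them was not tested.

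The highest of these promoters exceeded every member. CG1792, 143 bp from Mnat9, had a signal of 892 and rank 46 of 2984 in the conservative set, 628 and rank 47 in replicate 1, and 261 and rank 54 in replicate 2. CG10147, 257 bp from Bulli, had 681 at rank 86, with rank 70 in replicate 1 and rank 200 in replicate 2. Both were thus near the top of each list, unlike any member. D19B had 263 at rank 552, Phs 198, CG4820, which shares its promoter with the ribosomal protein gene RpS25, 171 at rank 1119, and CG17328 137 at rank 1487. CG17328 had no promoter peak in the set of either replicate alone. One peak of 199 at rank 897 met the 500 bp rule for both CG14711 and Zaf1, with its summit 129 bp upstream of a CG14711 start and 113 bp upstream of a Zaf1 start; both are family genes, and the annotated span of Zaf1 contains CG14711 and the peak. The median over the 13 genes was 137, with a range of 75.6 to 892. These values are per gene, and the 13 genes do not have 13 separate peaks. D19A shares its peak of 97.3 with another of the 13, and the idc peak, 82.6, is the nearer trem peak already counted for the members.

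**Figure D5:**
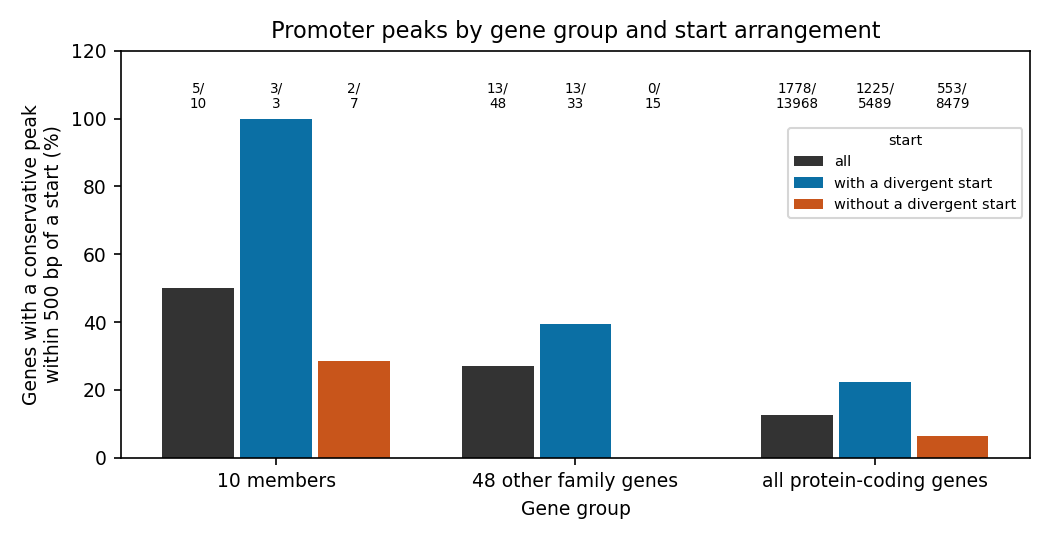
Share of genes (%, bars from 0) with a conservative peak within 500 bp of a start for the 10 members, the 48 other genes matched by the profile and all protein-coding genes, in all and split by whether a divergent start lies within 1000 bp; the counts stand above the bars. In each group the share is higher with a divergent start than without one, at 3 of 3 against 2 of 7 members and 22.3% against 6.52% of all genes.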

How the data were processed

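The data were 8 deposited narrowPeak lists on dm6, per the file list beside the samples: a ranked list of candidates and a thresholded set for each of 2 replicates, and 2 such pairs for the series. Chromatin was sheared by sonication to 200 to 800 (the size range in the labels). The sources used here do not name an aligner or a peak caller. Control libraries were not analysed here. The authors deposited a score per peak, a whole number made from the irreproducible discovery rate (IDR), with a minimum of 830 in every set. The deposited signal came from the peak caller and was compared within lists only. No result uses the deposited −log10 values of the q-value and of the IDR. In the series ranked lists, 4 kinds of column for separate inputs matched no sample and were not used. The labels name the samples as biological replicates, and no source says what they share.

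Summits were start plus the deposited offset. Genes were from Ensembl release 115, sequence from RefSeq. Counts are of protein-coding genes with a summit within 500 bp of any annotated start, or in the gene or within 5 kb. A divergent start lies upstream on the other strand within 1000 bp. Ranks share the best place at ties. Proteins were translated from the annotation (13915 genes). The family profile was made with HMMER 3.4 from a mafft 7.526 alignment of the first 100 residues of the members and kept matches at E below 1e-05, 58 with the members; identities are over pairwise aligned residues. The named list matched 15 of 15. Python 3.11.15, pandas 2.3.3 and Biopython 1.88 were used. The counting was tested on simulated data. With 1 group there is no contrast, so no test was made and values are descriptions.

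The members and the lists were chosen with earlier results of these data known. Named genes are the members, genes with a start within 1000 bp of a described summit, and up to 8 other family genes of highest conservative promoter signal; further neighbours are landmarks named after their values were seen. Alternatives were the other peak sets, each replicate alone, peaks above the median signal, other windows, interval overlap, and 1 start per gene.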

Additional observations from a re-analysis of the deposited data

How the results depend on the processing

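The members with a conservative promoter peak numbered 5, and from 3 to 5 with 1 replicate left out (3 with replicate 2 alone, where trem and pita dropped out). Taking only conservative peaks above the median signal left 2 members, 7 of the 13 profile genes and 7.87% in place of 12.7% of all genes. The larger set gave 20.5% of all genes and 5 in place of 3 genes of the named list. With 1 replicate left out, the profile list gave 8 to 12 genes and the named list 4 to 5. Windows of 200 or 1000 bp, interval overlap and 1 start per gene left every count within 1.5 times its value. The neighbourhood was changed with these windows, to 2 kb and 10 kb in place of 5 kb. Within 2 kb 5 members had a conservative peak, within 5 kb 7, and within 10 kb all 10, with ouib, nom and ZIPIC among them. The share of all genes was 36.3% at 5 kb. It was not counted at 2 kb or 10 kb, so the member counts there have no background beside them. Neighbouring members can also meet the wider rule by the same peak. The share of conservative windows with CACTG was 20.2% with 50 bases to each side, 9.38% with 25 and 54.0% with 100. Ranks moved between lists as the text gives them. No paired analysis was possible because all samples are of 1 group. The lists hold peaks, not reads, so a stretch without candidates says nothing of the reads there.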

Other observations

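At 4 members a conservative peak of another gene within 5 kb was higher than the member's own promoter peak. These were RpL32 and CG7943 beside Sry-delta (534 against 193), wmd and levy beside pita (274 against 88.8), Regnase-1 beside trem (159 against 82.6) and the Agpat2 intron beside prg (161 against 109). How often this holds over all genes with a conservative promoter peak was not counted, so it is not shown to be particular to the members. A conservative peak in the gene or within 5 kb was found for 36.3% of all genes. In all, the members' neighbourhoods held 10 different conservative peaks, 6 of them within 500 bp of a member start. The counts of candidates within 20 kb ran in opposite directions in the replicates at trem, with 42 in replicate 1 and 22 in replicate 2, and at ranshi, with 19 and 44. At Sry-delta and ZIPIC, whose windows overlap, the counts were close to the median of all genes in replicate 1, at 36 against 35.0. In replicate 2 they were above it, at 49 and 46 against 36.0. Of the candidates in the list behind the conservative set, 53.3% overlapped a candidate of each replicate.

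In the profile list, CG8319, with a signal of 69.9, and pad, with 128, had a promoter peak in the larger set and not in the conservative one. Both were named after their values were seen.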
